A study of Mus musculus with 1183 samples.

Results

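The complement genes described here are the 9 rows of the count table with the symbols C1qa, C1qb, C1qc, C3, C3ar1, C5ar1, Cfp, Cfb and C4b, out of 18072 genes. They were read across immune cells sorted from distal lung, taken on postnatal day 7 (P7) from mice kept in hyperoxia, that is, breathing gas rich in oxygen, which injures a growing lung. After sorting on plates, 1183 cells were sequenced singly with a Tn5 transposase protocol, with 598 cells from 1 female and 585 from 1 male animal. Both animals had the same treatment and age, so sex and animal cannot be told apart, no effect of hyperoxia was estimated, and samples from normal oxygen were not analysed here. The labels sort the cells into 16 subtypes, among them macrophages and monocytes named Mac I to Mac V, dendritic cells named DC I to DC III, neutrophils, basophils, mast cells and lymphocytes. They do not say how a subtype was assigned or give the strain.

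Complement is a cascade of plasma and locally made proteins that marks microbes and dead cells for uptake. In the classical pathway, C1q binds antibody or cell debris. Its subunit is built from the chains encoded by C1qa, C1qb and C1qc, and tissue macrophages are a known source of it. C4b encodes a C4 protein that is cleaved next, and all routes meet at C3. In the alternative pathway, factor B (Cfb) joins C3b to form the convertase, and properdin (Cfp) holds that convertase together. Cleavage of C3 and C5 releases the anaphylatoxins C3a and C5a, which act through the receptors encoded by C3ar1 and C5ar1.

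The promoters of genes for these proteins are shown because C1qb and C1qc lie next to each other and were read in the same cells, C3ar1 was read in those cells too, and C3 was read mostly in others. RefSeq (GRCm38.p6) gave a promoter for 6 of the 9 genes. Each window holds 250 bases before and 50 after the start of the gene, printed 5′ to 3′ on the strand of the gene. Capitals mark AGGAAG or its reverse complement CTTCCT, a form of the GGAA core bound by ETS factors such as PU.1, searched on both strands and chosen after the sequences had been seen.
C1qb, chr4:136886151-136886450, minus strand: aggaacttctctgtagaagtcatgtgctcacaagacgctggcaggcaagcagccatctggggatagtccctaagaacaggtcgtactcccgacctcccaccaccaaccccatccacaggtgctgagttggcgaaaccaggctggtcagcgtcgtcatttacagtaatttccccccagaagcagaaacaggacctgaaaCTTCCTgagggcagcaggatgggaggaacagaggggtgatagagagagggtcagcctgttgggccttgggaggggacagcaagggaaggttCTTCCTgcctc
C1qc, chr4:136892865-136893164, minus strand: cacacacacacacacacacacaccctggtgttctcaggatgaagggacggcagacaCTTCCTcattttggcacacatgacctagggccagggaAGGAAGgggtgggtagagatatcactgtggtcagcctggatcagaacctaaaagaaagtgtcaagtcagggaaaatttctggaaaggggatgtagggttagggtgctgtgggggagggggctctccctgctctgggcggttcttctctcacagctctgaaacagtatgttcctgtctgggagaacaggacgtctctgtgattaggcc
C3ar1, chr6:122856108-122856407, minus strand: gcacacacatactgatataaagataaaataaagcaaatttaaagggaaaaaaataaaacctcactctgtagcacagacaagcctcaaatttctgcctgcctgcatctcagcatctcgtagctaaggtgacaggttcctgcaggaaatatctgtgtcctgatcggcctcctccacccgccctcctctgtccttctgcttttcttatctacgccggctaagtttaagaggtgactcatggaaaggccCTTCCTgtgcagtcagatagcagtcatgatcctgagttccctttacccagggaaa
C3, chr17:57228087-57228386, minus strand: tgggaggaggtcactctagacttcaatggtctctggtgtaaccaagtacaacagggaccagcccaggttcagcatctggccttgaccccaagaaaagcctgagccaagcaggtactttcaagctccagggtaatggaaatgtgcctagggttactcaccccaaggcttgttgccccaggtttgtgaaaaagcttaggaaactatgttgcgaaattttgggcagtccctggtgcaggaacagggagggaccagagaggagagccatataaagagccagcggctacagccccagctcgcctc
The C1qb and C1qc windows each held 2 matches, the C3ar1 window held 1, and the C3 window held none. Of the 2 windows not printed, C5ar1 held 3 matches, of which 2 overlap, and Cfp held none. The motif was present in 35.4% of all 32851 promoters in the table, so a match is common, and it is given as a description only. In gene order on chromosome 4 of the same annotation, C1qb is followed by C1qc and then C1qa.

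The cells had from 16753 to 7560179 reads in the count table, with a median of 1100966. Levels below are CPM, reads of a gene scaled to a library total of 1000000, from counts summed over the cells of 1 animal and subtype; they count reads, not molecules. Marker lists of B, T and NK cells, neutrophils, mast cells, basophils and the DC subtypes were each highest in the subtype of that label. A list of interstitial macrophage markers (Pf4, Cd163, F13a1 and Ms4a7) was highest in Mac IV, at 6460 CPM (female) and 10903 CPM (male), with the next subtype at 262 CPM on average. An alveolar macrophage list was highest by its sum in Mac III, at 3458 and 3247 CPM, with Mac II at 2865 CPM on average. Of its 4 markers, 2 were highest in Mac III. Most of the Mac II sum came from Ear2, whose levels are given below. At 50 CPM or more, Mac II cells held a median of 1 alveolar marker, against 3 in Mac III. A monocyte list was highest in Mac V, at 4472 and 6277 CPM. No list was highest in Mac II. A list of epithelial markers reached 10785 CPM in the DC I cells of the male, against 59.3 CPM in those of the female, and a list of red cell markers reached 6102 CPM in the neutrophils of the male, against 31.6 CPM. The next subtype for the red cell list was Mac IV, at 1296 CPM on average, and a list of endothelial markers was highest in Mac IV, at 523 and 114 CPM. The part of these markers in the levels of these subtypes was not tested.

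**Figure D1:**
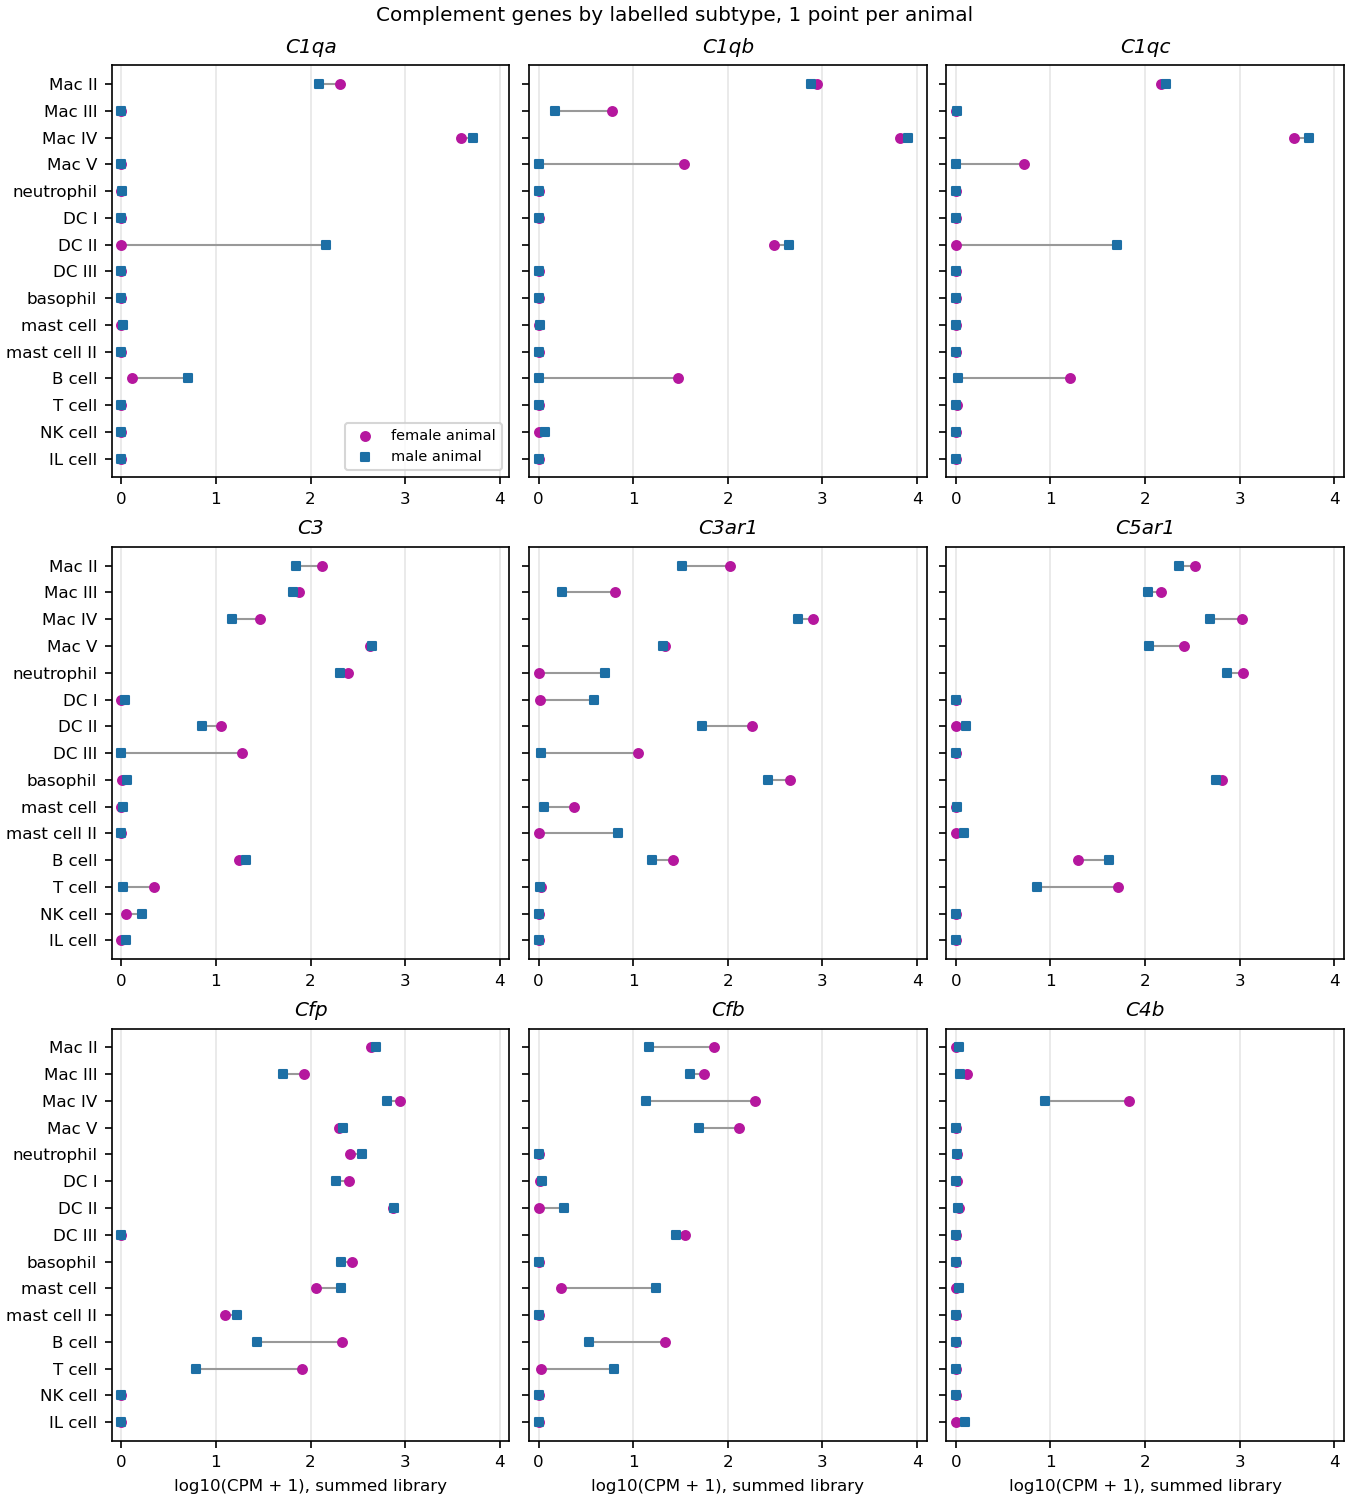
Level of each of the 9 genes in the 15 subtypes that both animals share; the x axis is log10(CPM + 1) of the summed library, circles are the female and squares the male animal. The C1q genes peak in Mac IV, C3 in Mac V, C3ar1 in Mac IV and basophils, C5ar1 in neutrophils, Mac IV and basophils, and Cfp is spread over most myeloid subtypes.

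The 3 chains of C1q were read mostly in Mac IV. C1qa stood at 3916 CPM (female) and 5218 CPM (male) in Mac IV, C1qb at 6536 and 8068 CPM, and C1qc at 3763 and 5446 CPM. Each chain was lower in the summed library of the female than in that of the male. For C1qa this varied by plate. The female plate of run DC28 gave 3034 CPM and that of run DC35 gave 4730 CPM. The male plates, both of run DC35, gave 4707 and 5549 CPM. C1qb was lower on both female plates (6386 and 6674 CPM against 7636 and 8363 CPM), as was C1qc (3266 and 4221 CPM against 5016 and 5720 CPM). Mac II came next for each chain by the mean over animals, with C1qa at 204 and 122 CPM, C1qb at 865 and 752 CPM, and C1qc at 145 and 165 CPM in the female and the male. For each chain, the levels of the animals did not overlap between Mac IV and Mac II. DC II followed with 307 and 442 CPM of C1qb, while C1qa and C1qc were without a read in the DC II cells of the female and stood at 144 and 49.7 CPM in the male. Per kilobase of exon, Mac IV held 3766 and 5017 CPM of C1qa, 6007 and 7415 CPM of C1qb, and 3128 and 4527 CPM of C1qc, so C1qb led the chains in both animals on this scale as well. The only Mac I cell, from the male, held 271 CPM of C1qa, 3761 CPM of C1qb and 1415 CPM of C1qc.

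Most Mac IV cells held every chain. All 3 chains had a read in 134 of 142 cells, and 139 cells held at least 2 chains at 50 CPM or more. Median C1qb per cell was 6381 CPM (female) and 7405 CPM (male). Across the 63 Mac IV cells of the female, Pearson r between chains on log2(CPM + 1) ran from 0.80 to 0.90, and across the 79 cells of the male from 0.32 to 0.71. These are correlations over cells of 1 animal, which share plates and a total to which CPM is scaled. Among the same cells, pairs of a chain with C3ar1, C5ar1 or Cfp gave r from -0.12 to 0.33 in the female and from 0.19 to 0.52 in the male, so the ranges overlapped in the male. There C1qb and C1qc gave 0.32, below the 0.52 of C1qb and C3ar1. By rank correlation that order turned, at 0.57 and 0.25. Rank correlations in the male ran from 0.57 to 0.77 between chains. For a chain with C3ar1, C5ar1 or Cfp they ran from 0.09 to 0.31, so by rank these ranges did not overlap. Of the 3 Mac IV cells without at least 2 chains at 50 CPM, 2 from the female had no read of any chain. At 50 CPM or more, the 3 cells held a median of 3 monocyte markers and 1 interstitial marker.

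**Figure D2:**
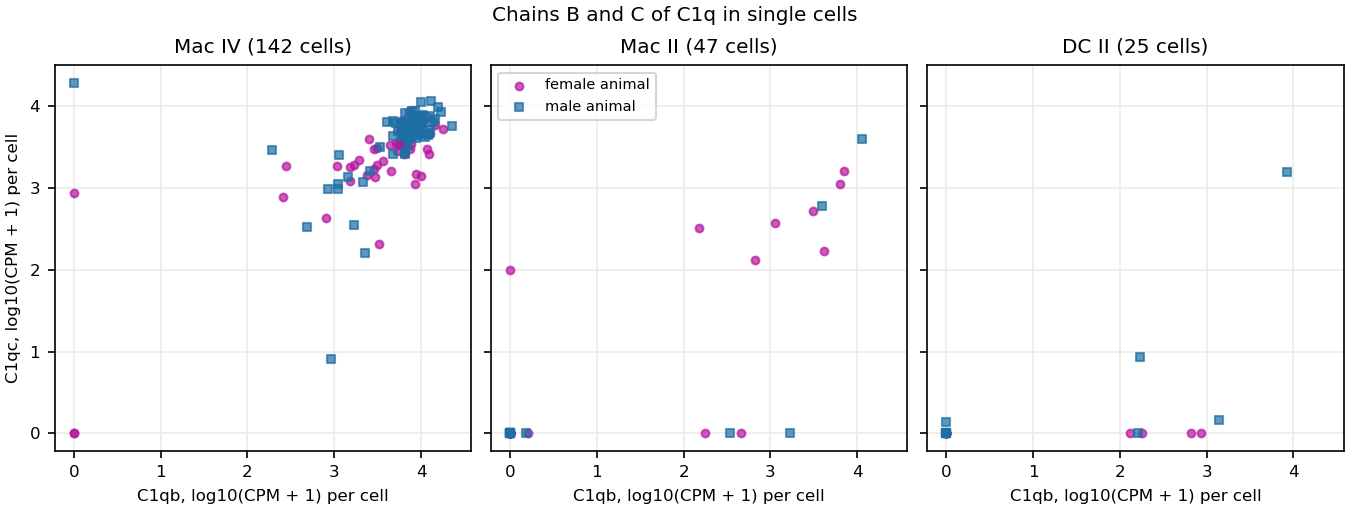
Each point is 1 cell, with C1qb on the x axis and C1qc on the y axis as log10(CPM + 1), circles for the female and squares for the male animal. Most of the 142 Mac IV cells lie high on both axes. Of the 47 Mac II cells, 10 held at least 2 chains of C1q at 50 CPM or more. A further 3 of the female and 1 of the male held 1 chain at that level, and the rest lie at or near 0.

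Outside Mac IV, 15 of 1041 cells held at least 2 chains at 50 CPM or more. They were 10 Mac II cells (7 female and 3 male), 2 DC II cells of the male, the Mac I cell, and 1 Mac V cell and 1 B cell of the female. Of the Mac II cells, 25.9% in the female and 15% in the male were of this kind. They came from both CD45 plates of each animal. Their summed C1qb was 2587 CPM (female) and 4485 CPM (male), against 48.9 and 31.7 CPM in the other Mac II cells. The Mac II level of C1q is therefore a mean over cells with and without it.

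The Mac II cells with C1q also differed from their neighbours in other complement genes. C3ar1 had a read in 7 of 7 such cells of the female and 3 of 3 of the male, against 0 of 20 and 3 of 17 of the other Mac II cells. C3 went the other way by share, with a read in 1 of 7 and 0 of 3 cells against 13 of 20 and 9 of 17. Its level was 132 against 131 CPM in the female and 0 against 82.3 CPM in the male, so the female levels did not differ. Properdin had a read in 6 of 7 and 3 of 3 cells against 20 of 20 and 15 of 17. By level it was higher in the cells with C1q, at 601 and 732 CPM against 354 and 447 CPM. Median depth was 1453910 against 1503100 reads per cell in the female and 1553300 against 1315860 in the male. None of the 10 cells held 2 or more of the 4 interstitial markers at 50 CPM or more. Of the 139 Mac IV cells with C1q, 129 did. Of further genes, chosen after their values were seen, Ccr2, a chemokine receptor of monocytes, stood at 1364 and 695 CPM in these cells against 283 and 342 CPM in the other Mac II cells. Ear2, one of the alveolar markers, was lower in them, at 1250 and 1133 CPM against 3131 and 3140 CPM. These cells were chosen by their C1q reads, they number 10, and no test was made.

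In the remaining subtypes C1q reads came from few cells. The 33.4 CPM of C1qb in the Mac V cells of the female came almost wholly from the cell counted above, and Mac V of the male had no read of any chain in 45 cells. The B cell with 2 chains also held 866 CPM of C3ar1 and 1363 CPM of Cfp, and at least 2 of the 4 interstitial markers were read in it; whether that well held a second cell was not tested. Neutrophils and mast cells held at most 1 read of any chain per animal.

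C3, the protein on which all pathways meet, was highest in Mac V, with 419 CPM (female) and 449 CPM (male). Neutrophils followed at 251 and 202 CPM, then Mac II at 131 and 69.0 CPM, Mac III at 73.9 and 63.5 CPM, and Mac IV at 28.2 and 13.9 CPM. The animals' levels overlapped only between Mac II and Mac III among these neighbours. At a fixed depth of 100000 reads per cell, C3 was read in 52 of 66 Mac V cells of the female, or 78.8% (exact 95% interval 67.0 to 87.9%), and in 30 of 44 Mac V cells of the male, or 68.2% (52.4 to 81.4%). In Mac III it was read in 64.1% and 53.8% of cells, but at a median of 36.1 and 12.3 CPM per cell, against 318 and 288 CPM in Mac V. C3 in Mac IV was read in 14.3% and 6.33% of cells, and 69.2% of the reads of the female came from 1 cell. DC I, basophils, mast cells and mast cell II held less than 1 CPM.

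Mac V and neutrophils were each uneven in C3. Mac V cells were divided by Ly6c2, a marker of classical monocytes, and Ace, a marker of nonclassical monocytes. All 28 cells with Ly6c2 above Ace (female) and 24 of 26 (male) had a C3 read, at 491 and 528 CPM. Where Ace was above Ly6c2, C3 was read in 25 of 36 and 7 of 16 cells, at 356 and 206 CPM. C5ar1 ran the other way, at 153 and 72.7 CPM in the Ly6c2 cells against 399 and 215 CPM in the Ace cells. Properdin stood at 231 and 293 CPM in the Ly6c2 cells against 164 and 7.05 CPM in the Ace cells, but 1 of the 2 female plates went the other way (150 against 182 CPM). The share of cells with C3 was higher, and the C5ar1 level lower, in the Ly6c2 cells on each of the 4 CD45 plates. Median depth was 1204070 and 1204530 reads in the Ly6c2 cells and 1001090 and 677355 in the Ace cells. At 100000 reads per cell the C3 shares were 100% and 84% against 63.9% and 43.8%. In the female 2 and in the male 3 Mac V cells had neither gene and were left out, and 2 Mac V cells of the female and 0 of the male had levels of the genes within a factor of 2.

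Neutrophils were divided by Ngp, a granule protein made by immature neutrophils. Of cells with at least 50 CPM of Ngp, 8 of 9 (female) and 17 of 20 (male) had a C3 read, at 554 and 357 CPM. Among the others these were 17 of 47 and 16 of 58 cells, at 130 and 118 CPM. C5ar1, which mature neutrophils use to follow C5a, was at 477 and 450 CPM in the Ngp cells against 1325 and 877 CPM in the others. The C3 share was higher and the C5ar1 level lower in the Ngp cells on each of the 4 plates. The Ngp cells were deeper, with medians of 1294750 and 758882 reads against 545341 and 545040. At 100000 reads per cell the C3 shares were 88.9% and 85% against 26.1% and 25.9%. By share, C5ar1 was not lower in the Ngp cells, with a read in 9 of 9 and 17 of 20 against 39 of 47 and 46 of 58 cells. The opposite direction of C3 and C5ar1 in neutrophils thus holds for levels, while in Mac V it holds for levels and shares in each animal, and no test was made.

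**Figure D3:**
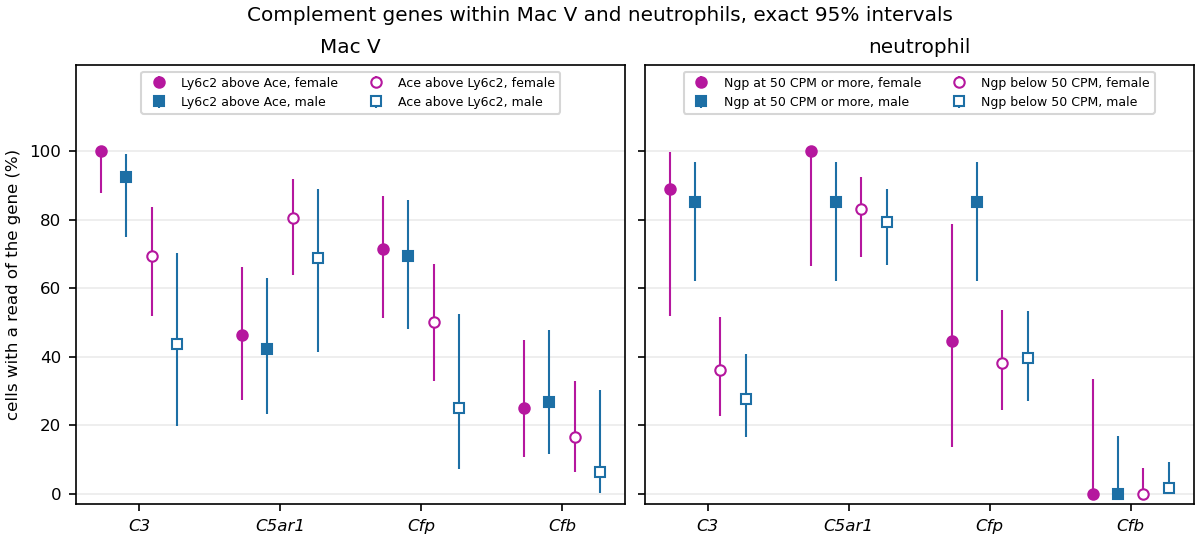
Share of cells with at least 1 read (y axis, percent) of C3, C5ar1, Cfp and Cfb, for Mac V cells divided by Ly6c2 and Ace and for neutrophils divided by Ngp; filled symbols are the Ly6c2 or Ngp cells, circles the female and squares the male, and bars are exact 95% intervals that cover counting error only. C3 was read in 100% and 92.3% of Ly6c2 cells against 69.4% and 43.8% of Ace cells.

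The alternative pathway genes did not share a pattern. Properdin, which neutrophils, monocytes and T cells are known to make, was the most widely read of the 9 genes. It stood at 881 and 643 CPM in Mac IV, 736 and 752 CPM in DC II and 433 and 493 CPM in Mac II, with levels that overlapped between Mac IV and DC II. Neutrophils, basophils, DC I and Mac V lay between 185 and 351 CPM, and neighbouring subtypes in that range overlapped. It was read in 11 of 11 and 13 of 14 DC II cells, but in 0 of 11 DC III cells of each animal, which allows a share of up to 27.3%, taking 3 cells of the total as the limit of a count of 0. Mac III was low, at 84.7 and 49.9 CPM. Levels in Mac IV differed by plate: the female plate of run DC28 gave 1374 CPM and the 3 CD45 plates of run DC35 gave from 426 to 658 CPM.

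Factor B was read in at most 55.6% of the cells of a subtype, and its order over subtypes did not hold between animals. It had a read in 73 of 182 and 93 of 208 Mac III cells and in 15 of 27 and 2 of 20 Mac II cells. Mac IV gave 192 CPM (female) and 12.7 CPM (male), of which 60.0% and 80.4% came from 1 cell. Without that cell the levels were 79.9 and 2.52 CPM. Mac V gave 130 and 48.3 CPM, Mac III 54.7 and 39.1 CPM, Mac II 69.9 and 13.7 CPM, and DC III 34.2 and 27.6 CPM. Among Mac II to Mac V, Mac III had the closest levels in the animals. It had a read in 33.1% and 33.7% of cells at 100000 reads, and levels of 47.4 and 33.1 CPM without the cell of most reads. Every Mac V cell with a Cfb read also had a C3 read, 13 of 13 (female) and 8 of 8 (male), in a subtype where C3 was read in 54 of 66 and 33 of 45 cells. Basophils had no read of it and neutrophils had 1. C4b, which cannot be told from its near-identical copy C4a with certainty, was read in 4 of 63 and 5 of 79 Mac IV cells, at 67.3 and 7.86 CPM, and 77.9% of the reads of the female came from 1 cell. The female plate of run DC28 gave 140 CPM of C4b in Mac IV and that of run DC35 gave 0.0201 CPM. C4b stayed below 1 CPM in every other subtype. C4a held 1397 reads over all cells, against 7453 of C4b.

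The receptors for the anaphylatoxins shared Mac IV and basophils among their 3 highest subtypes, while neutrophils held C5ar1 with almost no C3ar1. C3ar1 was highest in Mac IV, at 791 and 555 CPM, and next in basophils, at 454 and 267 CPM. On the female plate of run DC35 that order turned, with 561 CPM in basophils and 544 CPM in Mac IV. DC II at 180 and 53.0 CPM and Mac II at 104 and 32.1 CPM overlapped. C5ar1 was highest in neutrophils, at 1084 and 728 CPM, then Mac IV at 1047 and 480 CPM and basophils at 652 and 558 CPM, and these neighbours overlapped. Mac II at 332 and 227 CPM, Mac V at 255 and 108 CPM and Mac III at 147 and 107 CPM followed. For the C5a receptor no read was found in DC I, DC III, NK cells or the cells labelled IL cell of either animal; in DC I this covers 0 of 16 and 0 of 24 cells, which allows shares of up to 18.8% and 12.5% by the same limit of 3 cells.

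At 100000 reads per cell, C3ar1 was read in 92.1% (58 of 63, exact 95% interval 82.4 to 97.4%) and 92.4% (73 of 79, 84.2 to 97.2%) of Mac IV cells, and C5ar1 in 88.9% and 89.9%. Of basophils, 82.4% (28 of 34) and 57.9% (11 of 19) had C3ar1, and 79.4% and 100% had C5ar1. Neutrophils had C5ar1 in 83.6% and 78.2% of cells and C3ar1 in 0 of 55 and 1 of 78. Without thinning, both receptors were read in 55 of 63 and 70 of 79 Mac IV cells and in 24 of 34 and 12 of 19 basophils. The product of the single shares was 86.2% and 88.9% in Mac IV, against 87.3% and 88.6% of cells with both. Plates differed in level, as Mac IV of the female gave 1427 CPM of C5ar1 on the plate of run DC28 and 698 CPM on that of run DC35, and 1059 and 544 CPM of C3ar1. On the male plates, both of run DC35, C5ar1 in Mac IV was at 512 and 464 CPM.

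**Figure D4:**
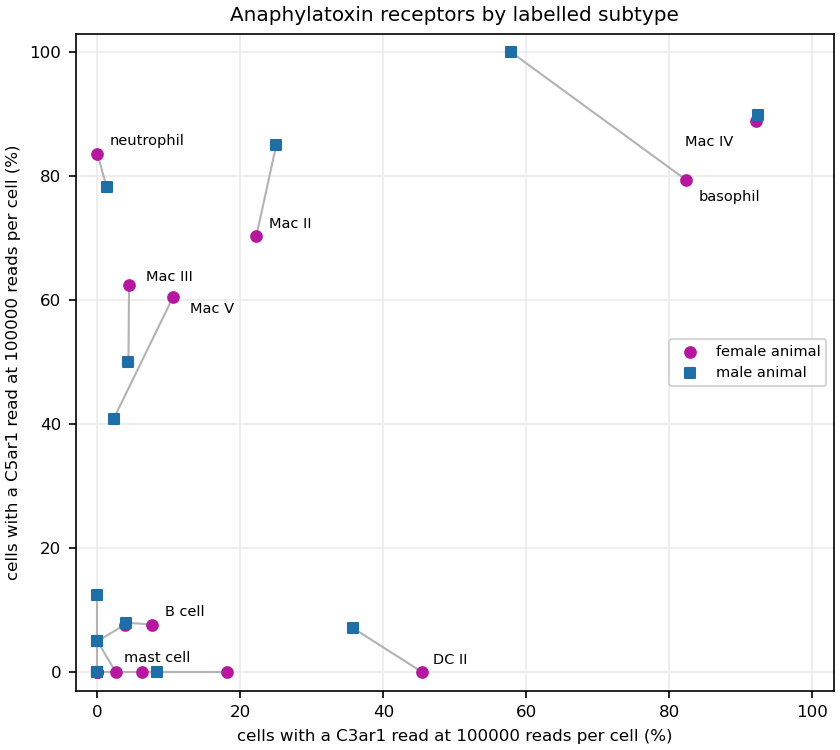
Share of cells with a read of C3ar1 (x axis) and of C5ar1 (y axis) at 100000 reads per cell, in percent; circles are the female and squares the male animal, and a line joins the values of a subtype. Mac IV lies at the upper right in both animals and neutrophils at the upper left, with C5ar1 in 83.6% and 78.2% of cells.

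Tests between subtypes used edgeR's quasi-likelihood F test on counts summed per animal and subtype, with 2 libraries per subtype and the Benjamini-Hochberg adjustment over 15379 genes in each of 7 comparisons; a gene was called at an adjusted p under 0.05. If subtypes were assigned from expression in the same cells, these p-values are too small. Fits of genes with no reads in a group give no bound on the fold, so folds are given within each animal.

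Between Mac IV and Mac III, 2 of the 9 genes were called, both higher in Mac IV; of all genes, 0.754% were called, and 0.501% were called higher in Mac IV. C1qa (adjusted p = 0.000937 in edgeR) had 1 read in Mac III of each animal and 373923 and 615067 in Mac IV, a ratio with counting intervals from 147124 to 32377700 and from 220622 to 48552100. C1qc (adjusted p = 0.0361 in edgeR) had 3 and 5 reads in Mac III and 359281 and 641928 in Mac IV. Its call was lost when any 1 of the 4 libraries was left out, with adjusted p from 0.0919 to 0.427 in edgeR, and with cells of run DC35 only (0.0879), over all 15 subtypes (0.119) and with voom (0.328). C1qb, with 1035 and 117 reads in Mac III, did not pass (log2 difference 11.36 ± 3.30 SE, adjusted p = 0.204 in edgeR), although it was 1322-fold and 16244-fold higher in Mac IV within the animals. C3ar1 was 145-fold and 711-fold higher in Mac IV and did not pass either (adjusted p = 0.105 in edgeR). Cfp (log2 difference 3.46 ± 1.01 SE) and C5ar1 (2.53 ± 0.86 SE) had the same sign in both animals, with adjusted p of 0.174 and 0.282 in edgeR. The 20 libraries shared a biological coefficient of variation of 1.05.

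Between Mac IV and Mac V, C1qa alone was called (adjusted p = 0.00238 in edgeR), higher in Mac IV; of all genes, 0.585% were called, and 0.267% were called higher in Mac IV. Mac V had no C1qa read, so against a floor of 3 reads per library C1qa was at least 109228-fold higher in Mac IV of the female and at least 80079-fold higher in the male. C3 was 14.9-fold and 32.2-fold higher in Mac V and did not pass (log2 difference -4.48 ± 1.17 SE for Mac IV minus Mac V, adjusted p = 0.113 in edgeR). DESeq2 called 5 of the 9 genes in this comparison, against 1589 of all 15379 genes. In Mac IV against Mac III it called 5 of the 9, against 1011 of all 15379. Between Mac II and Mac V, C1qa alone was called (adjusted p = 0.00513 in edgeR), at least 5696-fold and 1878-fold higher in Mac II, where it was read in 5 of 27 and 3 of 20 cells, while 0.423% of all genes were called and 0.169% were called higher in Mac II. The C1qa call was lost without the Mac V library of the female, with an adjusted p of 0.0556 in edgeR, and over all 15 subtypes (0.118). Limma's voom, which weights the libraries by subtype, did not call C1qa in any of these 3 comparisons, with adjusted p of 0.137, 0.272 and 0.593 in the order given.

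In 3 comparisons edgeR called none of the 9 genes. Between Mac III and Mac V, 1.34% of all genes were called. Of the 9 genes, 3 had an unadjusted p under 0.05 in edgeR, DESeq2 called 0 and voom 2. Over all 15379 genes these counts were 2005, 1501 and 2702. Between Mac II and Mac IV, 0.28% of all genes were called. Of the 9 genes, 4 had an unadjusted p under 0.05 in edgeR, DESeq2 called 2 and voom 3. Over all 15379 genes these counts were 1769, 1168 and 1235. Between neutrophils and Mac V, 1.32% of all genes were called. Of the 9 genes, 4 had an unadjusted p under 0.05 in edgeR, DESeq2 called 3 and voom 2. Over all 15379 genes these counts were 2773, 2318 and 719. Cfb had no read in neutrophils of the female and 1 in those of the male, against 10896 and 2225 reads in Mac V (adjusted p = 0.0538 in edgeR). C5ar1 was 4.26-fold and 6.72-fold higher in neutrophils than in Mac V (log2 difference 2.76 ± 0.87 SE, adjusted p = 0.145 in edgeR).

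Mast cells and basophils differed in both receptors. C3ar1 and C5ar1 were called, lower in mast cells; of all genes, 5.23% were called, and 2.09% were called higher in basophils. C5ar1 had no read in 39 mast cells of the female and 1 read in 20 of the male, against 32223 and 10976 reads in basophils (adjusted p = 6.42e-05 in edgeR). In the female it was at least 13439-fold lower in mast cells, and this call held in 10 of 10 other settings. C3ar1 was 338-fold and 1838-fold lower (log2 difference -9.07 ± 2.10 SE, adjusted p = 0.0234 in edgeR), with counting intervals from 273 to 425 and from 717 to 6747. Its call was lost without either mast cell library (adjusted p = 0.0716 without the female and 0.14 without the male in edgeR), with p-values adjusted over all 7 comparisons (0.0536) and over all 15 subtypes (0.101). Properdin did not pass between them (log2 difference -0.77 ± 0.92 SE, adjusted p = 0.71 in edgeR). Cfb went the other way and narrowly did not pass (adjusted p = 0.0502 in edgeR). It had 44 and 458 reads in mast cells and 0 in basophils of each animal, and was called in 2 of 10 other settings. Mast cell II, with 14 and 8 cells, was too small for the fit and held 0 and 0.227 CPM of C5ar1.

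Of 47 further complement genes in a list of pathway members, 38 were in the table and 17 exceeded 20 CPM in a subtype. Of 16 genes that start the classical and lectin pathways, 4 did so, among them Fcna, which encodes a ficolin, at 1139 and 424 CPM in Mac IV. It was without a read in Mac V and was called higher in both Mac IV and Mac III against Mac V (adjusted p = 0.0174 and 0.0406 in edgeR). Fcnb was read in neutrophils at 131 and 64.3 CPM. Of 7 terminal genes, 1 did so, Hc, which encodes C5. Its level was 0.0386 CPM in DC I of the female and 67.0 CPM in those of the male, the library with the epithelial markers named above. In DC III, Hc was at 32.4 CPM in the female and without a read in the male. The source of these reads was not tested. Among membrane inhibitors Cd55 was highest in B cells, at 379 and 436 CPM. The second C5a receptor, C5ar2, was highest in neutrophils, at 190 and 169 CPM, then in basophils, at 53.8 and 132 CPM. In Mac IV against Mac V, 1 of the 28 tested genes of the list was called, where 0.585% of all genes were. In each of the 7 comparisons at most 1 of the 28 was called higher and at most 1 lower. Mac III against Mac V and mast cells against basophils had 1 in each direction, where 1.34% and 5.23% of all genes were called. The median log2 difference of the list ran from -1.52 in Mac II minus Mac IV, against -0.11 over all genes, to 1.44 in Mac IV minus Mac V, against 0.07 over all genes. Mast cells held less than basophils of Itgb2, a chain of complement receptor 3, and more of Cd59b (adjusted p = 0.00748 and 0.038 in edgeR), an inhibitor of the membrane attack complex.

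The genes most like each member over 15 subtypes were ranked by Pearson r of mean log2(CPM + 1) among 8095 candidates. For C1qa they were Saa3, Efemp2 and Fcrls (r from 0.84 to 0.88), for C1qb Abca9, Fcgr1 and Trem2 (0.85 to 0.88), and for C1qc Saa3, Fcna and Ms4a7 (0.83 to 0.85). Rank correlations were lower for these, at 0.47, 0.67 and 0.33 with C1qa, from 0.67 to 0.75 with C1qb and from 0.55 to 0.63 with C1qc. Klra2, Sirpb1a and Sirpb1b were nearest to C3 (0.93 to 0.95), and Ccl9, Itsn1 and Serpine2 to C3ar1 (0.78 to 0.83). For C5ar1 these were C5ar2, its neighbour on chromosome 7 (0.97), Sqor and Clec4e. Cd300a, Rnf10 and Slc35a5 were nearest to Cfp (0.89 to 0.93), and Dram2, Cyp4v3 and Ggta1 to Cfb (0.82 to 0.87). For C4b, which exceeded 1 CPM in 1 subtype, Ccl12, Folr2 and Ccl8 gave r near 1.00 but rank correlations of 0.37, 0.18 and 0.18. Among the members, the chains of C1q gave r from 0.95 to 0.98 with one another, C3 and C5ar1 0.66, and C3 and C3ar1 0.31.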

How the data were processed

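The deposited values are raw counts, whole numbers of reads per gene and cell, made by the authors; the submitters' processing notes list STAR 2.5.2b, HTSeq 0.10 and the build name GRCh38, a human build although the samples are mouse, so genes were matched by symbol only. Strand handling, annotation and filters are not given in the sources used here, and no molecular identifiers are named, so intervals and limits cover counting error only.

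Counts were summed per animal and labelled subtype. Subtypes in which either animal had fewer than 15 cells were left out, and the other 10 (20 libraries, 19673065 to 235566546 reads) entered edgeR 4.0.16 in R 4.3.3 with 1 coefficient per subtype, TMM, filterByExpr and the quasi-likelihood F test; all 9 genes passed the filter. The replicate is the animal, with 1 of each sex; p-values rest on these 2 animals. Alternatives used DESeq2 1.42.0 and limma 3.58.1 among others. Scripts were tested on simulated data. Shares of cells were computed at 100000 reads, leaving out 5 shallower cells. Same-numbered libraries come from the same animal by label; their deviations over 45 pairs of subtypes correlated from -0.06 to 0.08. Of the 1183 cells, 10 came from gates other than CD45.

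The 9 genes and the lists were chosen with earlier results of these data known. All 9 are named, with the 3 genes of the highest r per member; other genes are named from lists of markers and pathway members or as stated.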

Additional observations from a re-analysis of the deposited data

Results flagged for a closer look

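Of 51 pairs of gene and comparison with at least 10 CPM in 1 library of the comparison, 4 had opposite signs in the female and the male. None of these differences between animals was tested. Cfb gave 3 of them. On the log2(CPM + 1) scale, Mac IV minus Mac III was 1.79 in the female and -1.55 in the male, Mac IV minus Mac V was 0.56 and -1.85, and Mac II minus Mac IV was -1.45 and 0.10. In Mac IV, 60.0% of the Cfb reads of the female and 80.4% of those of the male came from 1 cell. The fourth was C1qb in Mac III minus Mac V, at -2.53 in the female and 0.58 in the male, where reads came from few cells in each subtype. Groups of 2 animals are too small for a test of a single library against its group.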

How the results depend on the processing

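Counts of the 9 genes called, in order Mac IV against Mac III, Mac IV against Mac V, Mac III against Mac V, Mac II against Mac V, Mac II against Mac IV, neutrophils against Mac V and mast cells against basophils, were 2, 1, 0, 1, 0, 0 and 2. With the animal as a replicate block they were the same in all 7. DESeq2 gave 5, 5, 0, 1, 2, 3 and 3, against 1011, 1589, 1501, 1256, 1168, 2318 and 3346 of all 15379 genes. A fit of only the 2 subtypes gave 7, 6, 2, 2, 3, 1 and 2. It tested 9, 9, 7, 8, 9, 5 and 4 of the 9 genes. Over all genes it called 1711, 571, 1241, 247, 264, 97 and 284. Genes tested there numbered 14304, 13053, 13441, 11522, 12945, 11469 and 10852. Voom gave 5, 4, 2, 1, 3, 2 and 2, against 2664, 1940, 2702, 717, 1235, 719 and 1292 of all 15379 genes. Cells thinned to 100000 reads gave 5, 5, 0, 2, 0, 3 and 2. Of all 13380 genes tested in them, 321, 244, 445, 144, 104, 485 and 779 were called. A fit over all 15 subtypes gave 1, 1, 0, 0, 0, 0 and 1. Of all 15600 genes tested in it, 41, 26, 69, 18, 14, 63 and 267 were called. Run DC35 alone gave 2 genes in Mac IV against Mac V, and adjustment over 7 comparisons gave 1 in mast cells against basophils. Over all genes, these settings called 64 of 14930 and 403 of 15379 there. Leaving out 1 library gave 1 gene in each case for Mac IV against Mac III and against Mac V, 0 to 1 for Mac II against Mac V and 1 to 2 for mast cells against basophils. The cause was not tested. Counts over all genes moved by more: for Mac IV against Mac III 116 became 17 and 25 without the male or the female Mac III library, 41 over all 15 subtypes and 2664 with voom, and for mast cells against basophils from 267 to 3346 with DESeq2. The genes behind the first counts above (2, 1, 0, 1, 0, 0 and 2) kept their sign in every other setting run.

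Without the cell with most reads, or with CD45 plates only, the level of each gene in its highest subtype moved by less than the spread between animals, which is wide for Cfb and C4b. Run DC35 alone moved C3 in Mac V to 401 CPM and Cfp in Mac IV to 536 CPM as means over animals, and took C4b in Mac IV of the female from 67.3 to 0.0201 CPM. The C3 share difference by Ngp was 55.1 percentage points on average over the animals, 61.0 at 100000 reads per cell and 51.7 with a threshold of 500 CPM, and that by Ly6c2 and Ace was 39.6 and 38.2 points; these settings were chosen after seeing the data. A threshold of 10 CPM gave the same 10 Mac II cells with C1q.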
